A study of Mus musculus with 6 samples.

Results

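miR-296 and miR-298 are neighbouring microRNAs of the mouse Gnas locus, measured here in extracellular vesicles, small membrane-bound particles shed by cells, that were isolated from brain tissue. Their 4 arms, mmu-miR-296-5p, mmu-miR-296-3p, mmu-miR-298-5p and mmu-miR-298-3p, are 4 of the 1926 miRNA features in the deposited table and were found by name. None sits in a row that merges several miRNAs. The set was selected on its RPM values and listed zeros in these 6 libraries, so the group comparison below describes it and no p-value is given for an arm. The compared groups were brain vesicles of mice after status epilepticus, a prolonged seizure (SE-BDEV, 3 libraries), and those of matched control mice (CON-BDEV, 3 libraries), all at day 10. The sources used here do not give the event from which the day is counted, the strain, age and sex of the mice, how seizures were induced or whether animals were pooled. Separate animals are not stated for the libraries, so the spread between them may be technical.

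A miRNA hairpin is cut into a pair of short RNAs, the 5p and the 3p arm, and usually 1 of them is kept while the other is degraded. Bases 2 to 8 of the kept arm, the seed, pair with target messenger RNAs. Gnas encodes the stimulatory G-protein alpha subunit and lies in an imprinted cluster, in which some transcripts are made from only the maternal or only the paternal copy. In mouse, miR-296 and miR-298 are made from the paternal copy, as is the antisense transcript Nespas, which RefSeq calls Gnasas1. The deposited values carry no information on the parental copy. In human endothelial cells miR-296-5p has been tied to blood vessel growth through HGS, which sorts growth factor receptors for degradation. In mouse, miR-298-5p has been reported to lower BACE1, an enzyme that cleaves the amyloid precursor protein.

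In RefSeq (GRCm38.p6) the hairpins Mir296 and Mir298 are direct neighbours on the minus strand of chromosome 2, with the lncRNA Gm10714 on 1 side and Gnasas1 and then Gnas on the other. The submitters' processing notes name another build, mm9, so no coordinates are given. The hairpins are shown because every result turns on which arm each of them yields. They run 5′ to 3′ with both arms in capitals, the 5p arm first.
Mir298: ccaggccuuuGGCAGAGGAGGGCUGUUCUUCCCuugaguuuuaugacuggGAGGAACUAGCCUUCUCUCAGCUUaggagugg
Mir296: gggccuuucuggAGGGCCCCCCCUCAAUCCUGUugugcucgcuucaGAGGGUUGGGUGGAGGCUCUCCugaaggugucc

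The mature arms follow with the seed in capitals, to show that they are separate targeting sequences.
miR-298-5p: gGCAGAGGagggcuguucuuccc
miR-296-3p: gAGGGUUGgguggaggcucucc
miR-296-5p: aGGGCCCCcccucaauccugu
miR-298-3p: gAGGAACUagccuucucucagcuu
The 4 seeds differ from each other, and each was shared with 0 other mature sequences of the 1679 in the RefSeq table. The locus therefore adds 4 seeds and belongs to no seed family within that table. All 4 arms had a sequence there, as did 1637 of the 1926 features. miR-298-5p, miR-296-3p and miR-296-5p had GC contents of 65.2%, 68.2% and 66.7%, and miR-298-3p, the arm listed at 0, had 50.0%. The median was 50.0% over the 677 features above 0 that had a sequence. miR-296-5p held a run of 7 C bases, and the runs of C in the other arms were at most 3 long. The Mir298 hairpin was 82 bases long with 53.7% GC and a predicted folding energy of -42.7 kcal per mol. The Mir296 hairpin was 79 bases long with 63.3% GC and -43.2 kcal per mol, against a median GC of 51.7% over 1005 hairpins.

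The arms with most reads from each hairpin, miR-298-5p and miR-296-3p, both hold GGAG, a motif described for miRNAs sorted into vesicles of human T cells. It was looked for after the sequences had been seen, on the RNA strand only, and is in capitals here.
miR-298-5p: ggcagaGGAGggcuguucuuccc
miR-296-3p: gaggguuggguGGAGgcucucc
In miR-298-5p the motif starts at base 7 and overlaps the seed, and in miR-296-3p it starts at base 12. miR-296-5p and miR-298-3p do not hold these letters. GGAG was present in 12.6% of the 677 features above 0, in 15.9% of the 258 with a mean of 10 RPM or more, and in 14.8% of the 960 listed at 0 in every library. With 2 of 4 arms, the locus is too small to set against these shares.

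Values are RPM, a library's reads of a feature relative to all its reads assigned to miRNAs. Every value was a whole multiple of a library's step, taken as 1 read, which gave 4996073 to 9391887 reads in SE-BDEV and 4400167 to 8147118 in CON-BDEV. CON-BDEV 1 was the shallowest library. The smallest listed value was 2 reads, and 803 of the 1926 features were above 0 in at least 1 library. A listed 0 is therefore fewer reads than that or a value set to 0, and no limit is drawn from it. The 3 neuronal markers, miR-124-3p, miR-128-3p and miR-9-5p, summed to 15669 to 28117 RPM in SE-BDEV and 17156 to 20919 RPM in CON-BDEV, with differences of -0.04, 0.10 and 0.41 on the log2(RPM + 1) scale. The 2 endothelial markers, miR-126a-3p and miR-126a-5p, summed to 4116 to 6342 RPM in SE-BDEV and 2828 to 4276 RPM in CON-BDEV, and the 2 choroid plexus markers, miR-448-3p and miR-204-5p, to 438 to 763 RPM in SE-BDEV and 282 to 684 RPM in CON-BDEV. All 4 of these had higher means in SE-BDEV, no marker was called, and their part in the results below was not tested. For miR-126a-5p the groups did not overlap, at 441 to 728 RPM in SE-BDEV and 256 to 399 RPM in CON-BDEV. That held for 16.2% of the 308 features with a mean of 10 RPM or more. Its unadjusted limma p was under 0.05, as for 32 of the 308. Both red blood cell markers, miR-144-3p and miR-451a, had 0 in every library. In vesicle RNA from whole brain, fewer vesicles of a cell type and less miRNA per vesicle cannot be told apart.

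miR-298-5p had the highest listed values of the locus. It was at 149, 104 and 217 RPM in SE-BDEV 1, 2 and 3, against 304, 132 and 129.8 RPM in CON-BDEV 1, 2 and 3. The highest library was a control and the lowest an SE library, and the groups overlapped. These values rest on 522 to 1467 reads in SE-BDEV and 854 to 1339 reads in CON-BDEV. The exact 95% Poisson intervals, which cover counting error only, ran from 95.7 to 114 RPM for SE-BDEV 2 and from 206 to 229 RPM for SE-BDEV 3. They ran from 288 to 321 RPM for CON-BDEV 1 and from 124 to 140.1 RPM for CON-BDEV 2, so libraries of the same group differed by more than counting error. By its mean over the 6 libraries miR-298-5p ranked 101 among all features, above 87.4% of the 803 features above 0. Its rank was 97 to 121 in SE-BDEV and 83 to 112 in CON-BDEV.

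miR-296-3p came second by its listed mean. It was at 21.4 RPM in SE-BDEV 1, listed at 0 in SE-BDEV 2 and at 23.1 RPM in SE-BDEV 3, against 46.8, 17.9 and 21.3 RPM in CON-BDEV 1, 2 and 3. SE-BDEV 1 and 3 and CON-BDEV 2 and 3 lay close together, with CON-BDEV 1 above them and SE-BDEV 2 listed at 0. The values above 0 rest on 156 to 201 reads in SE-BDEV and 140 to 206 reads in CON-BDEV. It ranked 236 by its mean.

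miR-296-5p, the arm of the human endothelial work, was low in every library. It was at 2.02, 2.80 and 3.85 RPM in SE-BDEV 1, 2 and 3, against 1.82, 1.60 and 3.800 RPM in CON-BDEV 1, 2 and 3. That is 14 to 26 reads per SE-BDEV library and 8 to 25 per CON-BDEV library. The highest library of each group was the one numbered 3, and the groups overlapped. The 95% Poisson interval of the highest value, 2.52 to 5.64 RPM in SE-BDEV 3, overlapped that of the lowest, 0.850 to 2.73 RPM in CON-BDEV 2. It ranked 452 by its mean, with 43.7% of the 803 features below it. miR-298-3p, the partner of the most abundant arm, was listed at 0 in all 6 libraries and is 1 of 1123 features so listed.

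**Figure D1:**
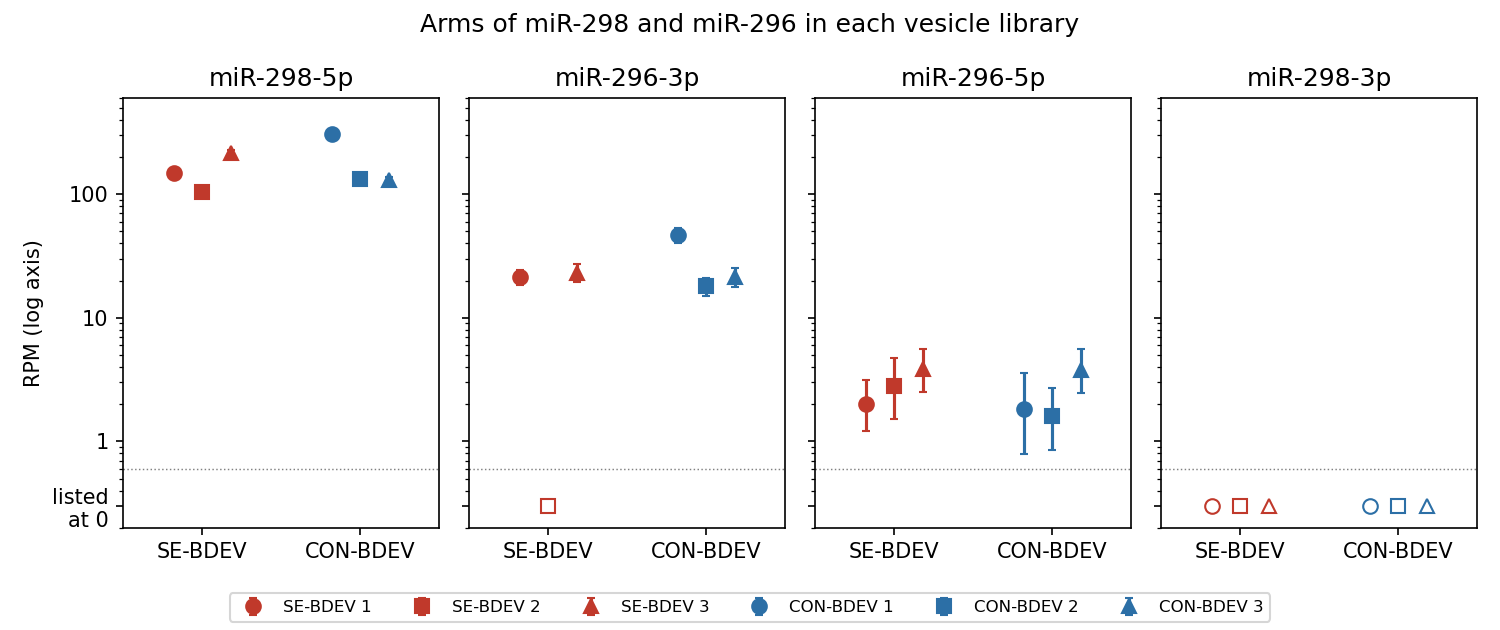
RPM (log axis) of the 4 arms in each library, SE-BDEV in red and CON-BDEV in blue, with exact 95% Poisson intervals; symbols give the replicate number and open symbols under the dotted line are values listed at 0. miR-298-5p lies between 104 and 304 RPM, miR-296-3p between 17.9 and 46.8 RPM where above 0, miR-296-5p between 1.60 and 3.85 RPM, and miR-298-3p is listed at 0 throughout.

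The order miR-298-5p, miR-296-3p, miR-296-5p, miR-298-3p held in SE-BDEV 1 and 3 and in all 3 CON-BDEV libraries. It failed in SE-BDEV 2, where miR-296-3p was listed at 0 and miR-296-5p at 2.80 RPM. The arms are 21 to 24 bases long. Where both arms of miR-296 were above 0, the 3p arm gave most of its reads. Its share was 91.4% of 220 reads in SE-BDEV 1 (exact 95% binomial interval 86.8% to 94.7%) and 85.7% of 182 reads in SE-BDEV 3 (79.8% to 90.5%). In CON-BDEV 1, 2 and 3 it was 96.3% of 214 reads (92.8% to 98.4%), 91.8% of 159 reads (86.4% to 95.6%) and 84.8% of 165 reads (78.5% to 89.9%). Both libraries numbered 3 had the smallest shares and the groups overlapped. In SE-BDEV 2 the 14 miR-296 reads were all from the 5p arm, and no share is read from them. With SE-BDEV 2 aside, the arm with most listed reads was 5p for miR-298 and 3p for miR-296. For miR-298 this rests on a 3p arm listed at 0, so no arm share is read for that hairpin.

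The levels of miR-298-5p and miR-296-3p went together across the 5 libraries that list both. The ratio of miR-298-5p to miR-296-3p was 6.95 in SE-BDEV 1 and 9.40 in SE-BDEV 3, against 6.50, 7.36 and 6.10 in CON-BDEV 1, 2 and 3. CON-BDEV 1 was 2.31 times the next highest control library for miR-298-5p and 2.20 times for miR-296-3p, so both arms were high there by about the same factor. The SD of the log2 ratio to miR-298-5p over these 5 libraries was 0.24 for miR-296-3p. It was the 11th smallest among 301 features with a mean of 10 RPM or more and no 0 in these libraries. Their median was 0.64. This rank leaves out SE-BDEV 2 and was taken with the values known, so it only describes. Over all 6 libraries the 2 arms had a Pearson correlation of 0.704, and miR-296-3p ranked 48 of 307 for miR-298-5p. CON-BDEV 1 was also the highest library for 31.8% of all features with a mean of 10 RPM or more. At the ratios of the other 5 libraries, the 104 RPM of miR-298-5p in SE-BDEV 2 would correspond to 11.1 to 17.1 RPM of miR-296-3p, or 55.5 to 85.6 reads, where the table lists 0.

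**Figure D2:**
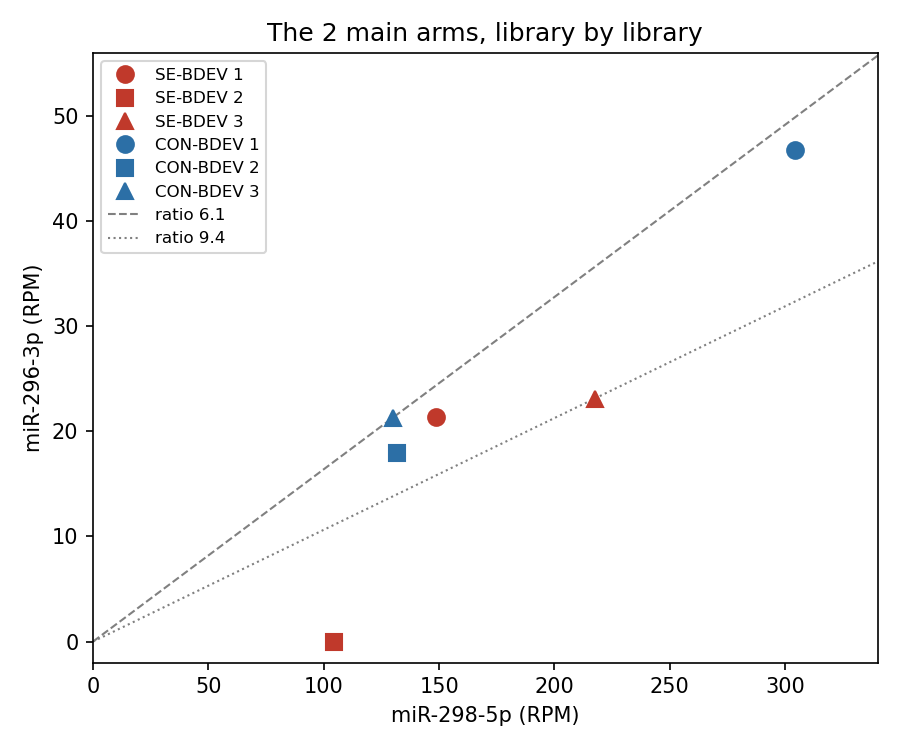
miR-296-3p (vertical axis, RPM) against miR-298-5p (horizontal axis, RPM), a point per library, SE-BDEV in red and CON-BDEV in blue; the lines mark ratios of miR-298-5p to miR-296-3p of 6.1 and 9.4. The 5 libraries that list both arms lie on or between the lines, CON-BDEV 1 far out, and SE-BDEV 2 lies on the horizontal axis at 104 RPM of miR-298-5p.

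A listed 0 at this level was rare in the table. Of the 308 features with a mean of 10 RPM or more, 7 (2.27%) were listed at 0 in at least 1 library. Only miR-296-3p among the 308 was listed at 0 in SE-BDEV 2 and above 0 in the other 5. For 222 features the lowest value above 0 was at least the 17.9 RPM of miR-296-3p. Of these, 2 had a 0 in any library, miR-296-3p itself and miR-24-3p. The cut is the lowest value of miR-296-3p itself, and its 0 was known when the set was chosen. The counts of zeros therefore only describe. miR-24-3p, named after its values were seen, was at 3128 RPM in SE-BDEV 3 and 3544 RPM in CON-BDEV 3 and listed at 0 in the other 4 libraries. Because a feature of that level can be listed at 0, the 0 of miR-296-3p is given as listed, and no mean or SD is given for it in SE-BDEV.

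The design sets SE-BDEV against CON-BDEV, which asks whether vesicle miRNAs differ after status epilepticus. No arm of the locus separated the groups. miR-298-5p averaged 157 ± 56.9 RPM in SE-BDEV and 189 ± 100.1 RPM in CON-BDEV (SD, n = 3 each), a difference of -0.21 ± 0.40 (SE) on the log2(RPM + 1) scale. miR-296-5p averaged 2.89 ± 0.918 RPM in SE-BDEV and 2.40 ± 1.21 RPM in CON-BDEV (SD, n = 3 each), a difference of 0.22 ± 0.51 (SE) on the same scale from the fit without a filter. The fitted difference of miR-296-3p was -1.74 ± 1.41 (SE), of which the listed 0 is a part. Without SE-BDEV 2 it was -0.23 ± 0.44 (SE). For each of these 3 arms the groups overlapped, as they did for all but 10.5% of the 803 features above 0 and all but 16.2% of the 308 with a mean of 10 RPM or more.

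Of the 2 arms with a mean of 10 RPM or more, 0 were called by limma at a Benjamini-Hochberg adjusted p under 0.05, and 0.974% of the 308 features tested were called. None of the arms had an unadjusted limma p under 0.05, against 32 of the 308 features and, with no filter, 45 of the 803. Nothing is read from these counts, since the arms were chosen with this contrast known. The share higher in SE-BDEV was also 0.974% and the share lower 0%. With no filter 0.374% of 803 features were called, and miR-296-5p was not among them. Under the replicate number as a block, 3.25% of the 308 were called, 2.92% higher and 0.325% lower, and miR-296-3p was the 1 feature called lower. Its SE-BDEV minus CON-BDEV differences behind that call were -1.09, -4.24 and 0.11 on the log2(RPM + 1) scale for the libraries numbered 1, 2 and 3. The pair numbered 2 holds the listed 0, and the pair numbered 3 went the other way. The call rests on a moderated SE of 0.46 for miR-296-3p, against 1.41 without the block. With the block and no filter its SE was 0.87, and miR-296-3p was not called. The other arms were not called with the block.

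In the authors' deposited table the log2 fold change of SE-BDEV over CON-BDEV was -0.34 ± 0.40 (SE) for miR-298-5p, -1.07 ± 1.23 for miR-296-3p and 0.21 ± 0.85 for miR-296-5p. The signs were those of the limma differences. The authors' deposited table called 0.872% of its 803 features at an adjusted p under 0.05 and none of these 3, and miR-298-3p was not in it.

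The differences of miR-298-5p and miR-296-3p changed with single libraries. Without CON-BDEV 1 that of miR-298-5p turned to 0.20 ± 0.34 (SE), and without SE-BDEV 2 to 0.05 ± 0.42 (SE). CON-BDEV 1 was the highest library for 98 of the 308 features with a mean of 10 RPM or more (31.8%), as was SE-BDEV 3, and CON-BDEV 2 for 4. The part of this spread between libraries in the difference of miR-298-5p was not tested. miR-296-5p kept a difference above 0 whichever library was left out, between 0.05 and 0.50, all within 1 SE of 0.

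**Figure D3:**
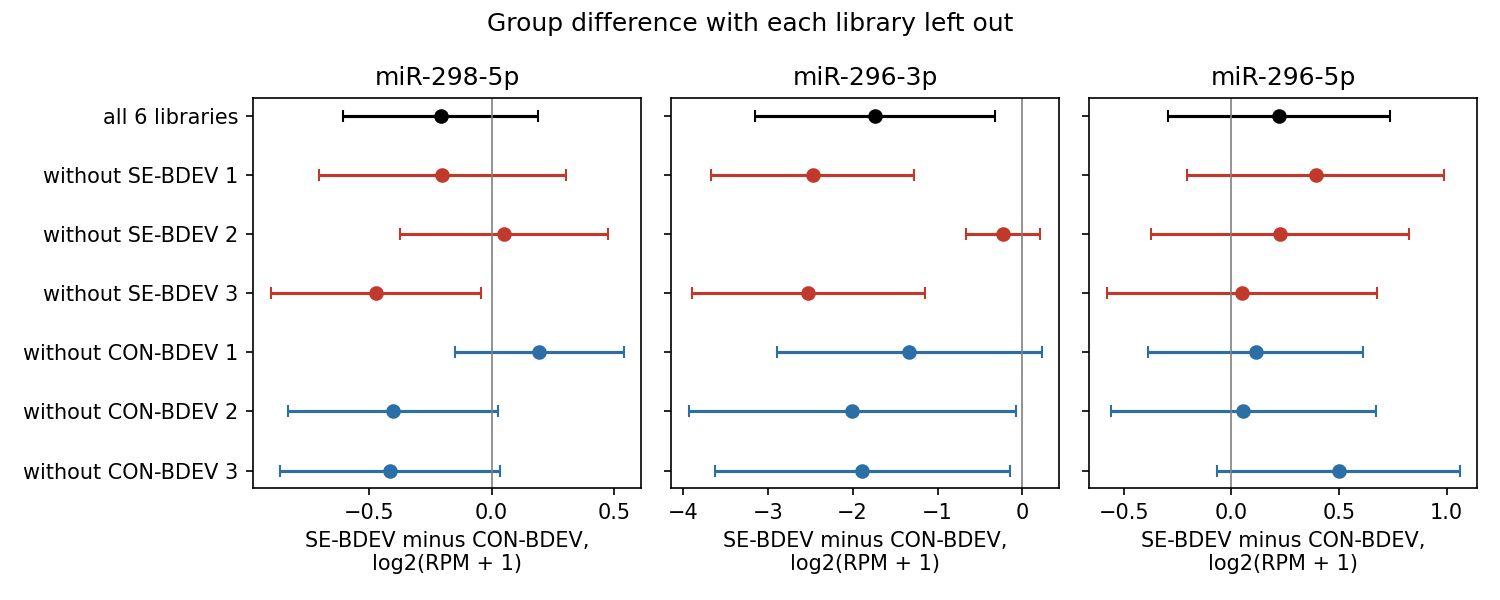
SE-BDEV minus CON-BDEV difference of 3 arms (horizontal axes, log2(RPM + 1), points with moderated standard errors) for all 6 libraries in black, then with each SE-BDEV library (red) or CON-BDEV library (blue) left out. miR-298-5p crosses 0 without SE-BDEV 2 or CON-BDEV 1, and miR-296-3p goes to -0.23 without SE-BDEV 2.

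The summed level of the 4 arms was 172, 107 and 244 RPM in SE-BDEV 1, 2 and 3, against 353, 151 and 155 RPM in CON-BDEV 1, 2 and 3. The groups overlapped here too, and CON-BDEV 1 was again the highest. miR-298 gave 86.4%, 97.4% and 89.0% of the reads of both hairpins in SE-BDEV 1, 2 and 3. In CON-BDEV 1, 2 and 3 it gave 86.2%, 87.1% and 83.8%. Without SE-BDEV 2, where miR-296-3p is listed at 0, the mean share in SE-BDEV was above that in CON-BDEV by 1.96 percentage points.

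The features most like each arm were ranked by Pearson correlation of log2(RPM + 1) over the 6 libraries among the other 307 with a mean of 10 RPM or more. These correlations describe 6 points that share library totals, and the outlying libraries weigh heavily on them. For miR-298-5p the first 3 were miR-351-5p (r = 0.959), miR-99a-3p (r = 0.955) and miR-3099-3p (r = 0.947). miR-351-5p was at 85.8, 54.8 and 92.0 RPM in SE-BDEV 1, 2 and 3, against 142, 75.7 and 73.6 RPM in CON-BDEV 1, 2 and 3, the order of miR-298-5p itself. For miR-296-3p they were miR-764-3p (r = 0.978), miR-497a-5p (r = 0.964) and miR-30c-2-3p (r = 0.958), all lowest in SE-BDEV 2. miR-764-3p was at 10.97, 5.604 and 10.96 RPM in SE-BDEV 1, 2 and 3, against 13.4, 9.33 and 11.4 RPM in CON-BDEV 1, 2 and 3. miR-298-5p and miR-296-3p correlated with each other at r = 0.704 over 6 libraries and at 0.899 over the 5 without SE-BDEV 2. Over 6 libraries miR-296-3p ranked 48 of 307 for miR-298-5p, and miR-298-5p ranked 45 for miR-296-3p. On the 5 libraries these ranks were 13 and 31. There the first 3 for miR-296-3p were miR-666-5p of the imprinted Dlk1-Dio3 cluster (r = 0.992), miR-204-3p (r = 0.990) and miR-7240-5p (r = 0.989). All 3 were highest in CON-BDEV 1. For miR-298-5p the first 3 were miR-320-3p (r = 0.959), miR-351-5p (r = 0.952) and miR-99a-3p (r = 0.946), also highest in CON-BDEV 1.

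The locus was set beside the other imprinted miRNA loci on the list. miR-483 lies in Igf2 and miR-335 in Mest, both expressed from the paternal copy, and miR-675 comes from H19, expressed from the maternal copy. miR-483-5p was at 24.5, 28.2 and 23.7 RPM in SE-BDEV 1, 2 and 3, against 56.1, 26.0 and 34.8 RPM in CON-BDEV 1, 2 and 3. miR-483-3p was at 4.26, 8.01 and 6.37 RPM in SE-BDEV 1, 2 and 3, against 33.6, 7.86 and 8.06 RPM in CON-BDEV 1, 2 and 3. Both miR-483 arms were thus highest in CON-BDEV 1, as were miR-298-5p and miR-296-3p.

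miR-335-5p went the other way in that library. It was at 1163, 1870 and 1391 RPM in SE-BDEV 1, 2 and 3, against 547, 1058 and 1151 RPM in CON-BDEV 1, 2 and 3. CON-BDEV 1 was thus its lowest library. The groups did not overlap, as for 16.2% of the 308 features with a mean of 10 RPM or more. SE-BDEV 1 lay only just above CON-BDEV 3. miR-335-3p was at 1.00 to 1.93 RPM in SE-BDEV and 1.72 to 2.74 RPM in CON-BDEV, and both miR-675 arms were listed at 0 in all libraries. The limma differences were -0.53 ± 0.34 (SE) for miR-483-5p, -0.997 ± 0.59 for miR-483-3p and 0.73 ± 0.32 for miR-335-5p on the log2(RPM + 1) scale, and none was called (1 had an unadjusted limma p under 0.05).

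The Dlk1-Dio3 cluster, a long row of imprinted miRNAs expressed from the maternal copy, had 52 features with a mean of 10 RPM or more. Of these 20 had higher and 32 lower values in SE-BDEV, against 177 and 131 of all 308. None was called by limma or in the authors' deposited table, and 2 had an unadjusted limma p under 0.05, against 32 of the 308. With the replicate block limma called miR-376c-3p higher. The median difference was -0.12 on the log2(RPM + 1) scale, against 0.06 over all 308. Its most abundant feature, miR-382-5p, was at 9466 to 11197 RPM in SE-BDEV and 12136 to 13927 RPM in CON-BDEV, many times the level of miR-298-5p. Its largest differences were 1.09 ± 0.38 (SE) for miR-376c-3p and -1.003 ± 0.41 for miR-667-3p. CON-BDEV 1 was the highest library for 15 of the 52 (28.8%), against 31.8% over all 308.

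**Figure D4:**
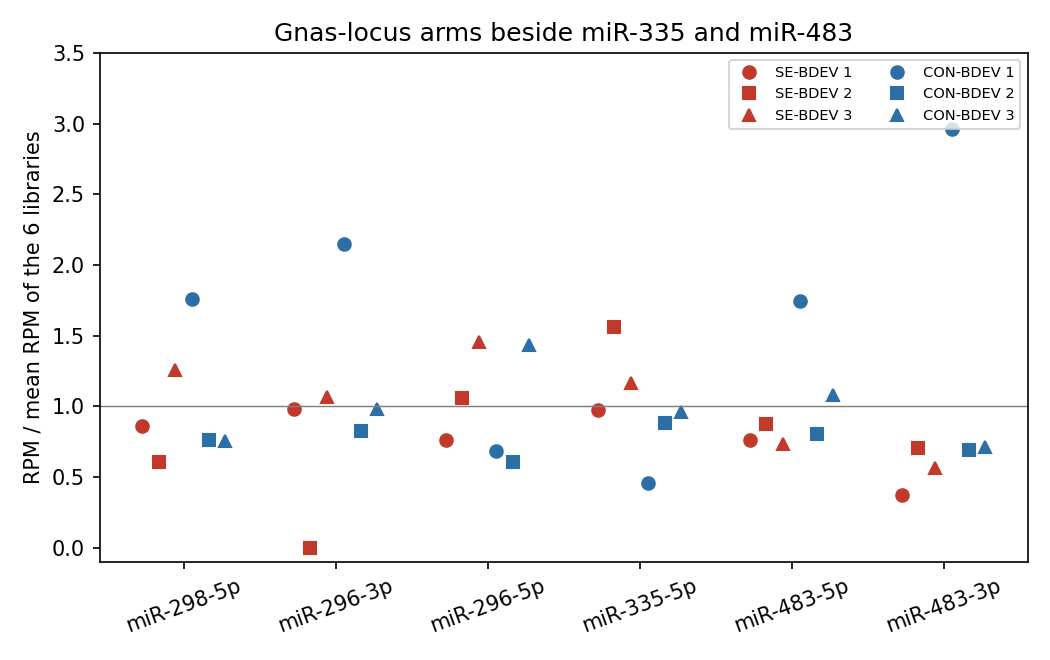
RPM of each library divided by the mean RPM of the 6 libraries (vertical axis) for the 3 arms of the Gnas locus above 0 and for 3 arms of miR-335 and miR-483, SE-BDEV in red to the left of CON-BDEV in blue, symbols by replicate number. CON-BDEV 1 is the highest point of miR-298-5p, miR-296-3p and both miR-483 arms and the lowest of miR-335-5p.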

How the data were processed

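RNA from brain-derived vesicles was purified with a miRNeasy Micro Kit and sequenced from QIAseq miRNA libraries, per the labels' protocols. The authors deposited RPM values for 1926 features and their own comparison of 803 features, whose columns, per the file headers, are a normalized signal averaged over libraries, log2 fold changes and their errors, a score, and p-values before and after adjustment. The submitters' processing notes name DESeq2 and mm9. The sources used here name no aligner or counter and do not say whether molecular identifiers were used. As no value of 1 read is listed, no count model was fitted.

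Differences came from limma 3.58.1 in R 4.3.3 on log2(RPM + 1), two-sided, with robust empirical Bayes and a trend of variance on level, for features with a mean of 10 RPM or more, adjusted by Benjamini-Hochberg and called under 0.05. The scale understates changes of low miRNAs. miR-296-5p came from the fit without a filter. The fit was tested on simulated data with planted changes larger than those fitted for the arms. Features with a listed 0 were given the median spread of those without one. That test therefore does not cover a feature like miR-296-3p or differences as small as those of miR-298-5p and miR-296-5p. Sequences came from RefSeq (GRCm38.p6), and folding energies from RNAfold 2.7.2. The arms and lists were chosen with earlier results of these data known. Named features were the arms, features of equal seed, the 3 most correlated with each arm tested, both arms of miR-335, miR-483 and miR-675, the most abundant and most different of the Dlk1-Dio3 list, and tissue and blood markers. Alternatives were the scaling, the pseudocount, the filter, the block and leaving out each library.

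The groups share replicate numbers. Deviations from the group means correlated at 0.216, 0.202 and 0.462 for the pairs numbered 1, 2 and 3. Without miR-24-3p the correlations were -0.0639, -0.0614 and -0.0806, so the positive values rest on that feature. Correlations between libraries of unlike number are not given, so a pairing is not shown. The labels do not state a pairing.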

Additional observations from a re-analysis of the deposited data

How the results depend on the processing

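Against 3 called features, 1 was called when the filter was raised to 100 RPM, which left fewer features to test, 10 with the replicate block, and 7 in the authors' deposited table. With a library left out the count was 2 to 8, and 8, of which 4 were higher and 4 lower in SE-BDEV, was reached without CON-BDEV 2. The cause was not tested. Of the arms, miR-296-3p was called with the block and in no other alternative, and miR-298-5p and miR-296-5p in none. The block changed no other call on an arm.

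The difference of miR-298-5p lay between -0.30 and -0.20 under the scaling, pseudocount and filter alternatives, and between -0.47 and 0.20 with 1 library left out. That of miR-296-3p was -2.83 with a pseudocount of 0.1 and -0.75 with 10, since its 0 is set by the pseudocount, and -2.52 to -0.23 with 1 library left out. That of miR-296-5p was 0.06 to 0.31 under scaling and pseudocount and 0.05 to 0.50 with 1 library left out. Each of these values lay within 1 SD between libraries of the value reported. With 3 libraries per group, leaving 1 out cannot move a difference by more than that SD, so no stability is read from it. For miR-296-3p the SD also includes the listed 0. The log2 ratio of group means of the summed arms, -0.33, ran from -0.65 to 0.19, above 0 only without CON-BDEV 1. The SE-BDEV minus CON-BDEV difference in the 3p share of miR-296 was -2.44 percentage points without SE-BDEV 2, and no value is given with it. That in the miR-298 share, 5.20 points, ran from 1.96, without SE-BDEV 2, to 7.46. Where SE-BDEV 2 is kept, this share and the summed arms take the listed 0 of miR-296-3p as 0. At 8 to 26 reads per library, the counting intervals of miR-296-5p are wide. The part of counting error in its spread between libraries was not tested.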
